A study of Mus musculus with 12 samples.

Results

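The genes described here encode amino acid transporters of 7 solute carrier families, Slc1a, Slc3a, Slc6a, Slc7a, Slc36a, Slc38a and Slc43a. A row of the count table belonged to the set when its symbol was one of these prefixes followed by a number. The set was chosen with earlier results of these data known, so its counts and shares below are descriptions. Of 32245 gene rows, 61 met that rule, and 35 of the 61 reached the minimum of 10 counts in at least 2 of the 12 libraries. All 35 were among the 13772 genes tested. The cells were OCY454, an osteocyte-like mouse line kept at 33 °C and brought to 37 °C to differentiate. The unedited line (WT) was compared with a line from which exons 19 to 21 of the ion channel gene Piezo1 had been removed by CRISPR-Cas9 (KO). Cells of both lines were collected 1, 14 and 28 days into differentiation, and each of the 6 groups has 2 poly(A) libraries. The sources used here give no number of edited clones and do not state that the 2 libraries of a group were grown apart, so the p-values reflect the spread of these samples alone, which may be technical.

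Cells take up amino acids through exchangers, sodium- or proton-coupled carriers and uniporters of overlapping substrate range. Slc3a2 encodes the heavy chain 4F2hc (CD98), which carries a light chain of the Slc7 family to the plasma membrane and leaves the substrate choice to that light chain. Many of these genes are known targets of ATF4, a transcription factor made when amino acids run short or protein folding fails, and osteoblast-lineage cells are known to depend on glutamine and proline uptake for matrix production. In these data 14 of the 35 transcripts, the heavy chain and several light chains and exchangers among them, were lower in KO than in WT on both day 1 and day 14, against 14.1% of all genes tested. A higher change in KO than in WT from day 14 to day 28 was called for 13, against 12.6% of all genes. Of the 14, 3 (Slc1a1, Slc1a6 and Slc6a15) reached the minimum count only through WT.

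The largest difference between the lines among carriers that reached the minimum count in both was that of Slc7a11, the cystine/glutamate exchanger xCT. Its upstream sequence is printed because the 250 bases before the gene start held 2 matches to the amino acid response core TGATGNAA, read on both strands (TTNCATCA on the other), a site class bound by ATF4 with C/EBP partners. The window is chr3:50443614-50443863 on the minus strand of GRCm38.p6 (RefSeq), given 5′ to 3′ along the gene, with capitals on the 2 matches.
Slc7a11: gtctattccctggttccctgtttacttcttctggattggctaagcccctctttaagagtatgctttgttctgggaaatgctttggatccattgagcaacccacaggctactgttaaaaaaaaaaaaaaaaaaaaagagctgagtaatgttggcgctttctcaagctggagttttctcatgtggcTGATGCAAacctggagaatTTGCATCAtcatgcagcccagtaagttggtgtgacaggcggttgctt
The first match began 66 bases before the start on the gene's strand, and the second, TTGCATCA, 47 bases before it on the opposite strand. RefSeq windows were matched for 23 of the 35 genes, and 2 of the 23 (8.7%) held the core on either strand, Slc7a11 and Slc7a7, against 3.91% of 27025 genes with a window. At least 2 matches within a window were found in 13 genes, 0.048% of all. A match is a description of letters and was not tied to binding in these cells. Genes of the set without a matched window were Slc1a5, Slc36a2, Slc38a1, Slc43a3, Slc6a15, Slc6a6, Slc6a7, Slc6a8, Slc7a2, Slc7a3, Slc7a4 and Slc7a5.

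Library totals ran from 8590067 to 15357427 counts. Piezo1 itself stood at 215.9 and 214.3 CPM (counts scaled to a common library total) in WT and 169.7 and 169.2 in KO on day 1. Day 14 values were 210.5 and 205.9 CPM in WT and 114.2 and 107.5 in KO, and day 28 values 235 and 241.6 against 281.2 and 275.3. Gene-level counts lie mostly outside the removed exons and hardly check the labels. Transcripts of the osteoblast markers summed to 7860 to 22100 CPM in WT and 6450 to 37100 in KO, and all 9 reached 1 CPM in at least 1 library. The osteocyte markers summed to 88.7 to 125 CPM in WT and 78.6 to 114 in KO; Dmp1 was present at 3.68 to 16.1 CPM, whereas Sost reached at most 1.30 CPM and Fgf23 0.131. Of the neuron and glia markers, 1 of 6 reached 1 CPM in any library, with sums of 1.33 to 2.16 CPM in WT and 0.346 to 1.37 in KO, and the muscle markers summed to 0.721 to 3.58 CPM in WT and 0.377 to 1.38 in KO, mostly Acta1, with Myod1 and Myog at 0 throughout. Blood and osteoclast markers summed to 20 to 34 CPM in WT and 18.4 to 26.1 in KO, those of chondrocytes to 40.8 to 65.2 and 37 to 64.3, and those of endothelium to 1.69 to 5.09 and 1.03 to 1.79. Adipocyte markers summed to 5.52 to 9.49 CPM in WT and 0.754 to 1.28 in KO. Most of the WT sum was Pparg, with group means of 5.06 to 7.15 CPM in WT and 0.0735 to 0.137 in KO. On day 28 Fabp4 averaged 0.574 CPM in WT and 0.617 in KO. The part of any cell-type mixture in the values below was not tested. Among transporters averaging at least 50 counts, the 2 libraries of WT day 28 differed by more than 1.5-fold for 5 of 27, up to 1.93-fold for Slc36a2, and those of the other groups for none.

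The 35 transcripts together made up 2761 and 2896 CPM in WT on day 1, 2511 and 2492 on day 14, and 3231 and 3487 on day 28. In KO the sums were 2060 and 2050, then 1872 and 1840, then 3924 and 3869 CPM. The KO sums were thus below WT on days 1 and 14 and above it on day 28, with no overlap on any day. Abundant transcripts weigh most in such sums: on day 28 Slc3a2 averaged 632 CPM in KO and 413 in WT, and Slc38a2 977 and 731. The median log2 difference over the 35 that day was 0.03, with 7 called higher in KO and 7 lower, against 19.8% and 21.2% of all genes. Slc38a2, the sodium-coupled carrier SNAT2 for small neutral amino acids, supplied 17.2% to 27.6% of these sums. Per kilobase of annotated exon, Slc3a2 led in WT on day 1 (81.6 CPM per kb, before Slc7a5 at 64.4 and Slc38a2 at 55.6) and in KO on day 28 (179, before Slc38a2 at 111 and Slc7a5 at 93.3). In KO on days 1 and 14 the order was led by Slc38a2, at 60.7 and 57.2 CPM per kb, with Slc3a2 at 46.4 and 34.2. In bulk RNA, fewer cells of a type and less RNA per cell cannot be told apart.

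A gene was called when its adjusted p was below 0.05 in edgeR's quasi-likelihood test, adjusted over all genes. On day 1, 16 of the 35 were lower in KO and 4 higher, against 20.8% of all genes tested lower and 19.5% higher. Scaling by library totals alone gave 16 lower and 1 higher, with all genes at 24.8% and 15.41%. The higher calls fell to 2 without WT day 1 replicate 1 or KO day 1 replicate 1 and to 1 without KO day 1 replicate 2, which left 13 lower. On day 14, 16 were lower and 5 higher, against 25.9% and 23.8% of all genes, with 15 and 3 when WT day 14 replicate 1 was left out. The median log2 difference over the 35 was -0.53 on day 1 and -0.54 on day 14, with all genes at -0.01 and -0.02. On day 28, 7 were lower and 7 higher against backgrounds of 21.2% and 19.8%, with a median of 0.03. Library totals alone gave 7 lower and 6 higher that day, with all genes at 26.8% and 13.1%. Of the 35, 30 reached the minimum count in both lines and Slc7a8 in 1 library of each line. The other 4 (Slc1a1, Slc1a6, Slc6a15 and Slc7a4) reached it only through WT libraries, so the choice itself favoured a lower value in KO. Slc1a1, Slc1a6 and Slc6a15 were called lower on every day, and Slc7a4 on day 28 only. Among the 30, 13 were lower and 4 higher on day 1, 13 lower and 5 higher on day 14, and 3 lower (Slc6a8, Slc7a1 and Slc7a11) and 7 higher on day 28. The median log2 difference over the 30 was -0.46 on day 1, -0.22 on day 14 and 0.11 on day 28.

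Days 1, 14 and 28 have no library in common between their KO and WT comparisons, so the calls can be set side by side. Each day compares the same WT and KO lines with a shared estimate of spread, so a repeated call is not independent of the first. Lower in KO on both day 1 and day 14 were the 14 members counted above, 11 of which reached the minimum in both lines. By day 28, 4 of the 14 were higher in KO (Slc3a2, Slc7a5, Slc1a4 and Slc1a5), 5 were not called (Slc7a2, Slc6a6, Slc6a9, Slc6a17 and Slc38a7), and 5 were still lower (Slc7a1 and Slc7a11, and the WT-only Slc6a15, Slc1a1 and Slc1a6). Of the 1941 genes of the whole table that were lower on both days, 5.46% were higher on day 28, 33.1% were not called and 61.5% were still lower. Slc7a6 and Slc38a1 were higher in KO on all 3 days, although on day 1 each call was lost when any 1 of 3 day 1 libraries was left out. A further 10 members were called on no day.

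**Figure D1:**
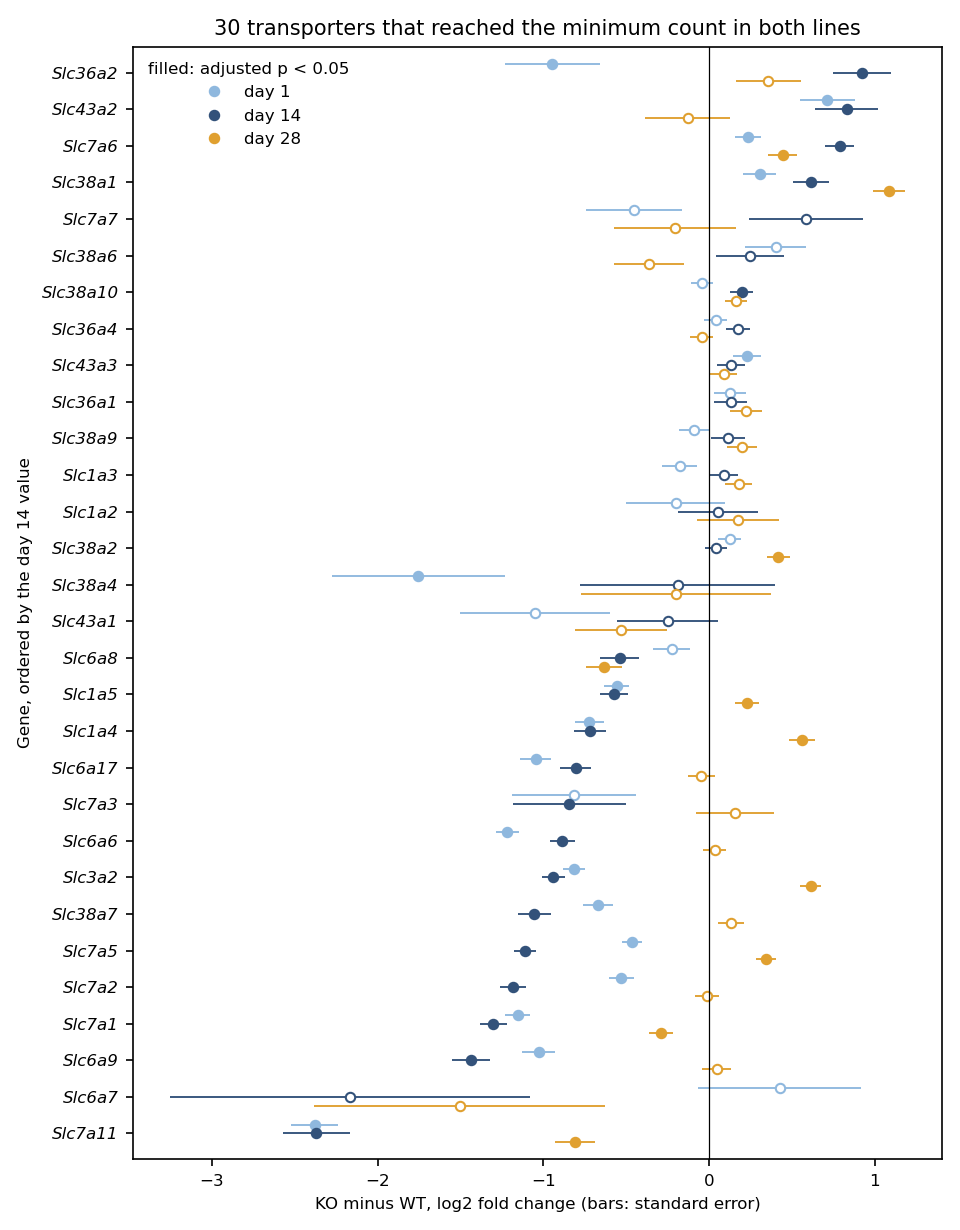
KO minus WT log2 fold change (x axis) with its standard error for the 30 transporters that reached the minimum count in both lines (y axis, ordered by the day 14 value), with days 1, 14 and 28 in 3 colours and filled points for adjusted p below 0.05. Slc7a11 lies at -2.38, -2.37 and -0.81, while Slc3a2 passes from -0.82 and -0.94 to 0.62.

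Slc3a2, the shared heavy chain (chr19:8706882-8723369, GRCm38, minus strand), gave 288 CPM in both WT libraries of day 1 and 163 and 164 CPM in KO. On day 14 it gave 234 and 229 CPM in WT and 119 and 122 in KO, and on day 28 384 and 442 CPM in WT and 633 and 632 in KO. KO thus lay below every WT library of the same day at first and above both at the end. The differences were -0.82 ± 0.07 (log2, standard error; adjusted p = 4.2e-09), -0.94 ± 0.07 and 0.62 ± 0.06 (adjusted p = 1.6e-07).

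Slc7a5 encodes LAT1, the light chain that exchanges leucine and other large neutral amino acids, at chr8:121881150-121907694. It stood at 234 and 244 CPM in WT and 169 and 177 in KO on day 1, at 203 in each WT library and 94.3 in each KO library on day 14, and at 267 and 277 against 360 and 331 on day 28. As with its heavy chain, the lines did not overlap on any day and their order was reversed on day 28. KO differed by -0.46 ± 0.06, -1.11 ± 0.07 and 0.34 ± 0.06 (adjusted p = 0.00012 on day 28).

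Slc7a11 (chr3:49892526-50443614), the cystine importer that feeds glutathione synthesis, gave 46.7 and 49.9 CPM in WT and 10.7 and 8.01 in KO on day 1. Day 14 values were 17.9 and 19.9 CPM against 3.58 and 3.68, and day 28 values 47.5 and 63.3 against 33.1 and 30.1. Every KO library lay below both WT libraries of its day, and both lines were lowest on day 14. The differences were -2.38 ± 0.14 (adjusted p = 4.1e-11), -2.37 ± 0.20 and -0.81 ± 0.12 (adjusted p = 1.6e-05).

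Slc7a6 encodes y+LAT2, a light chain that releases arginine in exchange for neutral amino acids, and moved the other way. It gave 55.8 and 62.7 CPM in WT and 69.5 and 70.0 in KO on day 1, 39.1 and 37.9 against 67.9 and 65.3 on day 14, and 29.8 and 26.8 against 39.3 and 37.9 on day 28. KO was the higher line throughout, by 0.23 ± 0.08, 0.79 ± 0.09 (adjusted p = 1.5e-07) and 0.44 ± 0.09 (adjusted p = 0.00043). The day 1 call was lost without WT replicate 1, KO replicate 1 or KO replicate 2 of that day (0.15 to 0.25), with library totals alone (0.18) and by DESeq2 (0.24). The light chain Slc7a7 (y+LAT1) stood low, at 1.15 to 3.74 CPM, with no call between the lines. Slc7a8 (LAT2) had at most 11 counts in a library.

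Among the cationic carriers, Slc7a1 (CAT-1, the common arginine and lysine uniporter, chr5:148327410-148399904) gave 255 and 274 CPM in WT and 120 and 118 in KO on day 1. It gave 232 and 229 against 94.9 and 92.3 CPM on day 14, and 307 and 371 against 279 and 276 on day 28. KO stayed below WT on each day without overlap, by -1.15 ± 0.08 (adjusted p = 1.5e-10), -1.30 ± 0.08 and -0.29 ± 0.07 (adjusted p = 0.0031).

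Slc7a2 (CAT-2), a related arginine carrier known from nitric oxide producing cells, had 163 and 167 CPM in WT and 115 and 113 in KO on day 1, 207 and 225 against 101 and 89.8 on day 14, and 287 and 331 against 295 and 317 on day 28. The lines were apart on days 1 and 14 (-0.53 ± 0.08 and -1.18 ± 0.08, adjusted p = 1e-10) and overlapped on day 28 (-0.01 ± 0.07, adjusted p = 0.9). From day 1 to day 14 it rose in WT by 0.39 ± 0.07, while the KO value was -0.26 ± 0.08, a call lost without either KO day 1 library or without KO day 14 replicate 2 (-0.28 to -0.18).

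Slc7a3 (CAT-3) was scarce, at 2.14 and 2.03 CPM in WT and 1.02 and 1.32 in KO on day 1, 3.2 and 3.82 against 2.36 and 1.54 on day 14, and 4.95 and 8.58 against 7.0 and 7.87 on day 28. Its day 14 difference of -0.84 ± 0.34 (adjusted p = 0.046) was lost on leaving out any 1 of 9 libraries (-0.98 to -0.56) and by DESeq2. Slc7a4, an orphan relative with no settled substrate, had 19 counts in WT and 3 in KO on day 28, a ratio of 6.3 (95% interval 1.85 to 33.2, counting error only). That call was lost without KO day 28 replicate 1 and by DESeq2. Slc7a4 too reached the minimum count only through WT, which favoured a lower value in KO.

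The sodium-dependent neutral exchangers of the Slc1 family followed the heavy chain. Slc1a4 (ASCT1, which carries alanine, serine and cysteine, chr11:20302180-20332713) stood at 56.5 and 56.4 CPM in WT and 35.1 and 33.4 in KO on day 1, 46.5 and 52.9 against 28.1 and 32.0 on day 14, and 63.6 and 57.2 against 89.3 and 89.2 on day 28. It was lower in KO by -0.72 ± 0.09 on each of the earlier days (adjusted p = 1.2e-06 and 2.2e-06) and higher by 0.56 ± 0.08 on day 28 (adjusted p = 1.1e-05).

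Slc1a5 (ASCT2, a glutamine exchanger, chr7:16781340-16798274) had 68.3 CPM in each WT library and 46.3 and 46.5 in KO on day 1, 50.03 and 49.7 against 35.6 and 31.6 on day 14, and 78.3 and 82.5 against 98.2 and 90.7 on day 28. KO libraries lay below WT and then above it. The early differences were -0.56 ± 0.08 and -0.57 ± 0.09 (adjusted p = 1.1e-05). The day 28 difference of 0.23 ± 0.07 (adjusted p = 0.014) was lost without WT day 28 replicate 1 or KO day 28 replicate 1 (0.17 to 0.19) and with library totals alone (0.14).

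**Figure D2:**
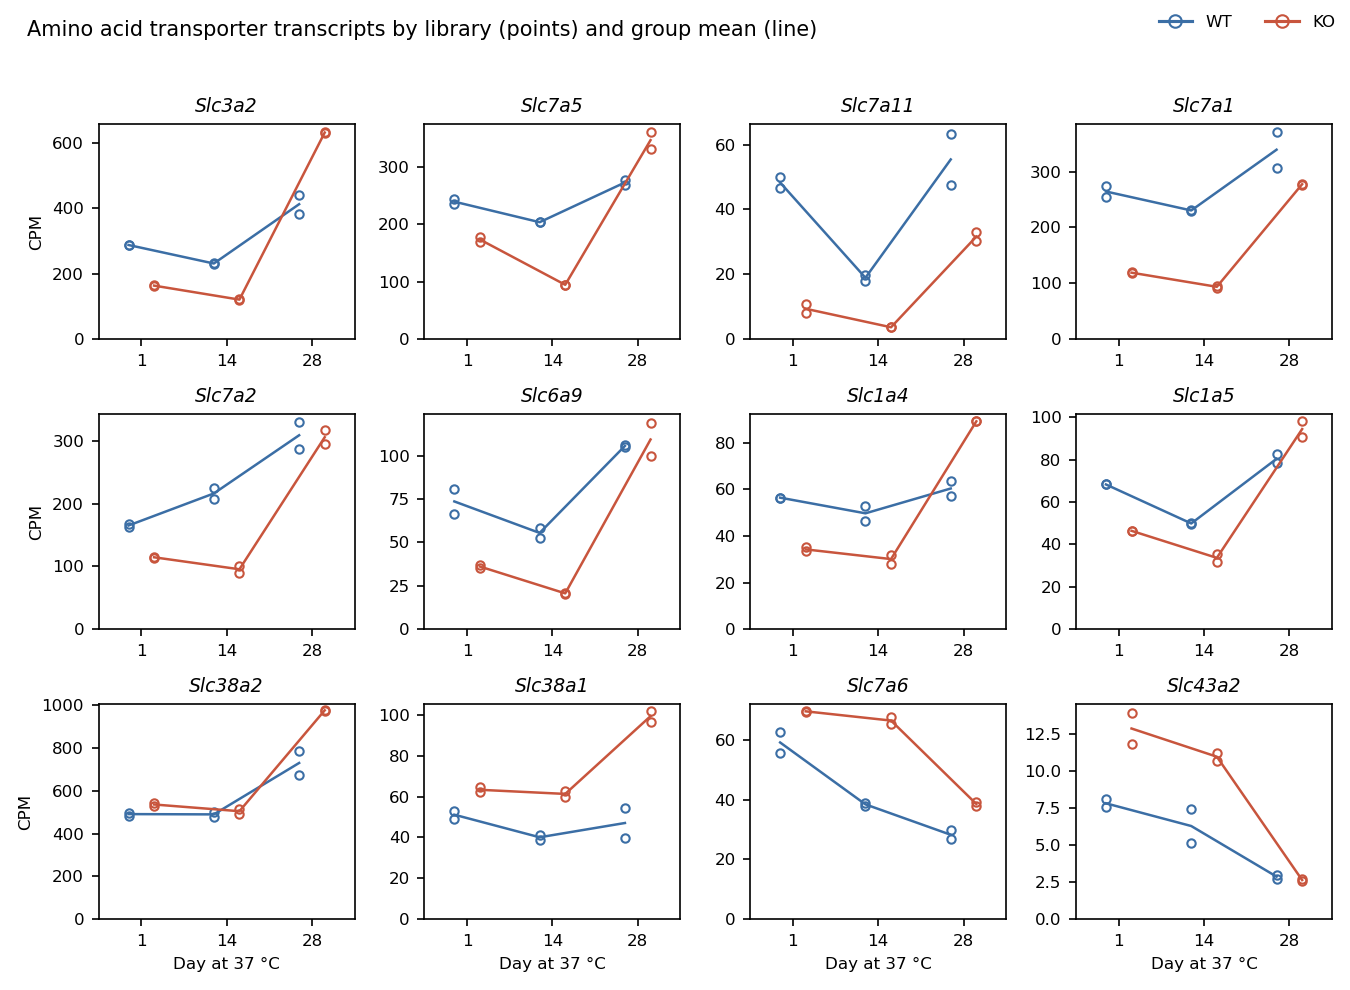
CPM (y axis, linear from 0) by day at 37 °C (x axis) for 12 transporters, with each library as an open circle and lines joining the group means of WT (blue) and KO (red). In KO, Slc3a2 rises from 119 and 122 CPM on day 14 to 633 and 632 on day 28, above WT, whereas Slc7a6 falls in both lines and stays higher in KO.

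Of the glutamate carriers, Slc1a3 (GLAST, known in glia and reported in bone cells, chr15:8634124-8710764) was the most abundant. It gave 20.01 and 22.8 CPM in WT and 18.3 and 19.6 in KO on day 1, 60.8 and 65.6 against 70.5 and 63.9 on day 14, and 60.2 and 55.1 against 64.0 and 66.7 on day 28. It rose from day 1 to day 14 in both lines, by 1.56 ± 0.09 in WT (adjusted p = 5.8e-11) and 1.83 ± 0.10 in KO (adjusted p = 5.5e-12), and was called between the lines on no day. Slc1a2 (GLT-1) rose likewise at lower level, by 1.22 ± 0.26 and 1.48 ± 0.27, within 2.21 to 7.97 CPM over all libraries.

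Slc1a1 (EAAC1, a glutamate and cysteine carrier) had 19 to 59 counts per WT library and 0 to 2 per KO library. Summed over the 2 libraries, 47 counts in WT and 1 in KO on day 1 gave a 38.8-fold lower value (95% interval 6.64 to 1570, counting error only). On day 14 the ratio was 37.3 (12.4 to 184). With 59 counts against 0 on day 28, KO was at least 19.6-fold lower, taking 3 counts over the group in place of 0. Slc1a6 (EAAT4), best known from cerebellar Purkinje cells, had 0 to 4 counts in KO and was 10.2-fold lower on day 1 (3.23 to 51.7) and 82.5-fold lower on day 14 (14.4 to 3300). Its day 1 call was lost without KO day 1 replicate 2. For Slc1a1 and Slc1a6 these ratios are descriptions, since both genes reached the minimum count only through WT.

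The Slc6 carrier with the largest difference of the set was Slc6a15 (B0AT2, a sodium-dependent carrier of proline and branched-chain amino acids, known from neurons, chr10:103367783-103419377). WT libraries held 30.7 and 36.2 CPM on day 1, 46.0 and 47.5 on day 14, and 40.7 and 36.0 on day 28. KO libraries held 0.171 and 0.0735 CPM, then 0.377 and 0.343, then 0.605 and 0.204, which is 1 to 7 counts each. KO was 282-fold lower on day 1 from 1024 counts against 3 (96.2 to 1370), and the fitted log2 differences were -6.98 ± 0.24 on day 14 and -6.62 ± 0.24 on day 28. These are descriptions, since the gene reached the minimum count only through WT.

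**Figure D3:**
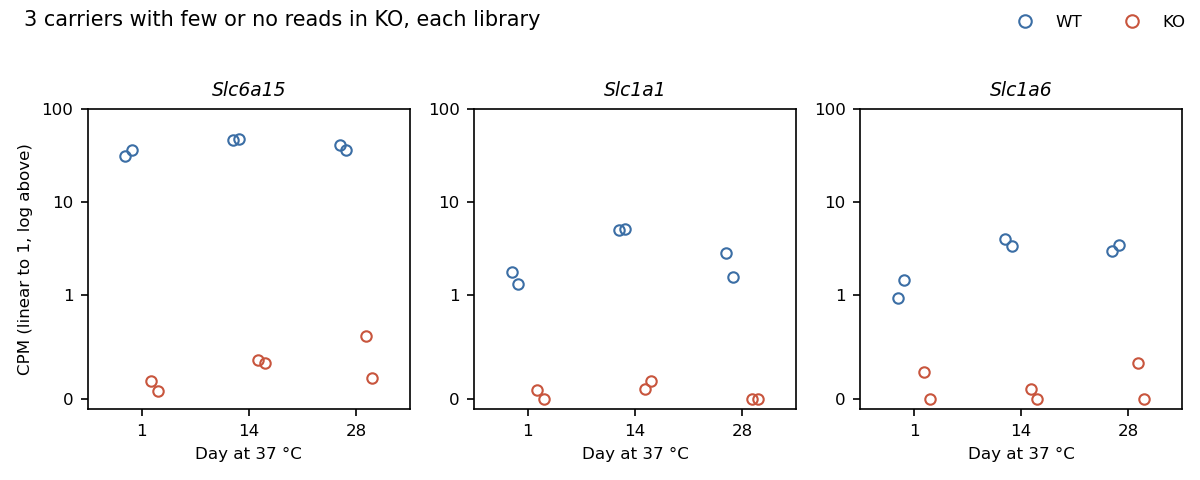
CPM (y axis, linear to 1 and logarithmic above) by day at 37 °C (x axis) in each library for Slc6a15, Slc1a1 and Slc1a6, WT blue and KO red. KO values stay below 1 CPM in every library, while WT Slc6a15 lies between 30.7 and 47.5 CPM.

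Slc6a9 (GLYT1, the glycine carrier, chr4:117834506-117875198) gave 66.5 and 80.8 CPM in WT and 35.3 and 36.8 in KO on day 1, 58.5 and 52.5 against 20.4 and 20.8 on day 14, and 105 and 106 against 119 and 99.7 on day 28. It was lower in KO by -1.03 ± 0.10 (adjusted p = 5e-08) and -1.43 ± 0.11 (adjusted p = 1.7e-09), and on day 28 the KO libraries lay on either side of WT.

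Slc6a6 (TauT, the taurine carrier, chr6:91684053-91759066) stood at 425 and 486 CPM in WT and 197 and 195 in KO on day 1, 236 and 222 against 129 and 119 on day 14, and 228 and 231 against 243 and 227 on day 28. WT fell by 0.99 on the log2 scale from day 1 to day 14 and was then level (0.00 ± 0.07). KO was lower by -1.22 ± 0.07 (adjusted p = 2.1e-11) and -0.88 ± 0.07, and overlapped WT on day 28.

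Slc6a8 (the creatine carrier, chrX:73673150-73682502) gave 49.0 and 44.0 CPM in WT and 41.1 and 38.6 in KO on day 1, 56.6 and 55.7 against 34.0 and 43.2 on day 14, and 80.7 and 77.6 against 43.8 and 57.6 on day 28. Unlike the glycine and taurine carriers, it was not called on day 1 (-0.22 ± 0.11, adjusted p = 0.12) and was lower in KO on day 14 (-0.54 ± 0.12) and day 28 (-0.63 ± 0.11, adjusted p = 6.9e-05). Slc6a17 (NTT4, a vesicular neutral amino acid carrier) was lower in KO by -1.05 ± 0.09 and -0.80 ± 0.09 on days 1 and 14, and stood at -0.05 ± 0.08 on day 28. Slc6a7, the proline carrier, had at most 17 counts in a library and no call between the lines.

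In the Slc38 family, the abundant Slc38a2 (chr15:96687392-96699730) gave 484 and 499 CPM in WT and 542 and 531 in KO on day 1, 501 and 479 against 517 and 493 on day 14, and 673 and 789 against 981 and 974 on day 28. KO was higher on day 28 (0.42 ± 0.07, adjusted p = 4.4e-05), and the differences of 0.13 ± 0.07 on day 1 and 0.04 ± 0.07 on day 14 were not called. Its neighbour Slc38a1 (SNAT1, a glutamine carrier, chr15:96571418-96642913) gave 53.1 and 49.2 CPM in WT and 64.6 and 62.1 in KO on day 1, 38.9 and 41.3 against 60.1 and 62.6 on day 14, and 39.9 and 54.3 against 96.7 and 102 on day 28. KO was higher without overlap each day, by 0.31 ± 0.10, 0.62 ± 0.11 and 1.09 ± 0.10 (adjusted p = 2.3e-08). The day 1 call was lost without WT replicate 2, KO replicate 1 or KO replicate 2 of that day (0.26 to 0.34).

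Slc38a7 (SNAT7, which exports glutamine from lysosomes) resembled Slc3a2 on the early days, at -0.67 ± 0.09 and -1.05 ± 0.10, and stood at 0.13 ± 0.08 on day 28. Slc38a9, the lysosomal arginine sensor that signals to mTORC1, stayed within 24.97 to 37.4 CPM and was called between the lines on no day. Slc38a10 was higher in KO on day 14 (0.20 ± 0.07), a call lost without WT replicate 1 or either KO library of that day (0.16 to 0.22) and with library totals alone (0.16). Slc38a4 (SNAT4), with 4 to 28 counts a library, was lower on day 1 (-1.75 ± 0.52), and not so called without KO day 1 replicate 2 (-1.19). Slc38a6 was called between the lines on no day.

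The proton-coupled carrier Slc36a2 (PAT2, for glycine and proline, chr11:55158470-55185077) changed order between days 1 and 14. It stood at 5.65 and 4.72 CPM in WT and 2.99 and 2.43 in KO on day 1, 18.5 and 18.0 against 34.3 and 35.0 on day 14, and 14.0 and 7.26 against 14.95 and 12.9 on day 28. KO was lower by -0.95 ± 0.29 (adjusted p = 0.012) and then higher by 0.92 ± 0.17 (adjusted p = 0.00016), and the lines overlapped on day 28. The day 1 call was lost without WT replicate 1 or KO replicate 2 of that day (-0.81 to -0.79), and on day 28 KO was called higher (0.93) once WT replicate 1 was left out. The lysosomal and broadly expressed relatives Slc36a1 and Slc36a4 ran from 29.8 to 39.7 CPM and from 67.2 to 77.3 CPM over the 12 libraries, with no call between the lines.

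Of the Slc43 uniporters, Slc43a2 (LAT4, for large neutral amino acids, chr11:75531694-75577575) gave 8.06 and 7.54 CPM in WT and 13.9 and 11.8 in KO on day 1, 5.14 and 7.40 against 10.7 and 11.2 on day 14, and 3.0 and 2.72 against 2.68 and 2.58 on day 28. It was higher in KO by 0.71 ± 0.17 (adjusted p = 0.0018) and 0.83 ± 0.19 (adjusted p = 0.0011), the latter lost without WT day 14 replicate 1 (0.56). Slc43a1 (LAT3) stood at 2.34 and 1.11 CPM in WT and 0.939 and 0.735 in KO on day 1, 5.56 and 4.28 against 5.09 and 3.34 on day 14, and 7.33 and 4.78 against 4.41 and 4.07 on day 28. It rose from day 1 to day 14 in both lines, by 1.52 ± 0.33 and 2.32 ± 0.40, and was called between the lines on no day. Slc43a3, a purine nucleobase carrier kept in the set by its name, was higher in KO on day 1 (0.23 ± 0.08), a call lost without WT replicate 1 or KO replicate 2 of that day (0.15 to 0.18), with library totals alone (0.17) and by DESeq2.

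Between days 1 and 14, 8 members rose and 11 fell in WT, against 18.2% and 15.9% of all genes, and 8 rose and 7 fell without WT day 1 replicate 2. In the same interval 6 rose and 10 fell in KO, against 19.4% and 18%. The largest rise was that of Slc36a2 in KO, 3.68 ± 0.23 (adjusted p = 7.8e-11), from 2.99 and 2.43 to 34.3 and 35.0 CPM, against 1.82 ± 0.21 in WT. A difference between the lines in this change was called higher in KO for 3 members and lower for 2, against 9.19% and 9.65% of all genes. These were Slc36a2 (1.87 ± 0.33, adjusted p = 0.00044), Slc7a6 (0.55 ± 0.12) and Slc6a6 (0.33 ± 0.10) on the higher side, and Slc7a2 (-0.65 ± 0.11) and Slc7a5 (-0.64 ± 0.09, adjusted p = 3.4e-05) on the lower. The Slc6a6 difference was lost on leaving out any 1 of 5 of the 8 libraries of these days (0.23 to 0.33). The total of 5 became 9 without WT day 28 replicate 1 or replicate 2, libraries that enter only through the shared estimate of spread.

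From day 14 to day 28 more carriers rose than fell in each line. In WT, 12 rose and 4 fell, against 17.9% and 16.8% of all genes, with 2 falls left when WT day 28 replicate 2 was omitted. In KO, 16 rose and 6 fell, against 25.6% and 25.1%, and the median log2 change was 0.32 against -0.01 over all genes. The falls in KO numbered 3, beside 14 rises, without KO day 14 replicate 1 or KO day 28 replicate 2. The steepest were Slc7a11 (3.11 ± 0.18 in KO, 1.55 ± 0.13 in WT), Slc6a9 (2.4 ± 0.11 and 0.92 ± 0.10), Slc3a2 (2.39 ± 0.07 and 0.84 ± 0.07), Slc38a7 (2.02 ± 0.09 and 0.83 ± 0.09), Slc7a3 (1.94 ± 0.29 and 0.94 ± 0.27) and Slc7a5 (1.87 ± 0.07 and 0.42 ± 0.06). The WT rise of Slc7a3 was lost without WT day 14 replicate 1 or WT day 28 replicate 2 (0.51 to 0.81).

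The difference between the lines in this second change was tested directly. It was higher in KO for 13 members and lower for 2, against 12.6% and 11.5% of all genes. The highest were Slc7a11 (1.56 ± 0.24, adjusted p = 6e-05), Slc3a2 (1.55 ± 0.09, adjusted p = 1.2e-10), Slc6a9 (1.48 ± 0.15), Slc7a5 (1.45 ± 0.09, adjusted p = 1.8e-10) and Slc1a4 (1.28 ± 0.12). Slc38a7, Slc7a2, Slc7a1, Slc6a6, Slc1a5, Slc6a17, Slc38a1 and Slc38a2 followed, between 1.19 and 0.38. The Slc38a1 difference (0.47 ± 0.15) was lost on leaving out any 1 of 5 libraries (0.26 to 0.50). Both lower ones were less firm: Slc43a2 (-0.96 ± 0.32, adjusted p = 0.034) was lost on leaving out any 1 of 6 libraries (-0.99 to -0.69), Slc7a6 (-0.34 ± 0.12, adjusted p = 0.047) any 1 of 9 (-0.37 to -0.26), and both by DESeq2. Slc7a3, with 1.00 ± 0.41, was not called (adjusted p = 0.087). KO day 14 enters both this comparison and that of KO with WT on day 14, so they are not independent.

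**Figure D4:**
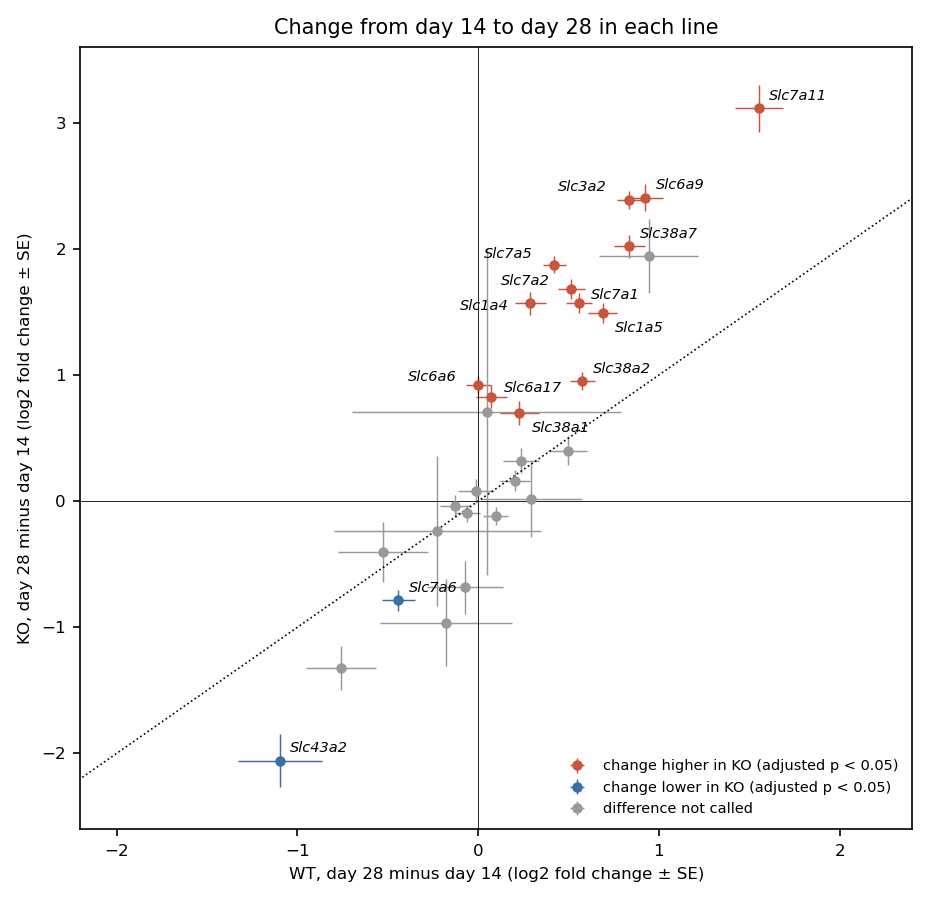
Log2 fold change from day 14 to day 28 in WT (x axis) and in KO (y axis), with standard errors, for the 30 transporters that reached the minimum count in both lines; the dotted line marks equal change. Members with a called difference between the lines are named, red for a higher change in KO and blue for a lower one, and Slc7a11 lies farthest out, at 1.55 in WT and 3.11 in KO.

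The neighbouring genes of the pathway were counted in 4 lists, written, as the set was, with earlier results of these data known. Some genes of the amino acid response list are also in the sensing list or among the glutamine and glutamate enzymes, so the counts of these lists are not separate. In the list of the ATF4-dependent amino acid response and amino acid synthesis (24 genes, all tested), 22 were lower in KO on day 1, and 22 lower and 1 higher on day 14, where 20.8% and 25.9% of all genes were lower. The medians were -0.81 and -0.87. The lowest on both days included Cth, the last enzyme of cysteine synthesis (-2.92 ± 0.23 and -3.06 ± 0.26), and Stc2, a secreted stress glycoprotein (-2.63 ± 0.19 and -3.06 ± 0.25). On day 28, 8 were higher and 6 lower (all genes 19.8% and 21.2%): Atf4 itself stood at 0.44 ± 0.06 and Phgdh, the first enzyme of serine synthesis, at 0.64 ± 0.07, whereas Cth (-2.28 ± 0.18) and Stc2 (-1.38 ± 0.16) were still lower. From day 14 to day 28, 22 of the 24 rose and 1 fell in KO, and 17 rose and 2 fell in WT, where 25.6% and 17.9% of all genes rose. The change was higher in KO for 20 and lower for 1, against 12.6% and 11.5% of all genes.

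The list of amino acid sensing upstream of mTORC1 and GCN2 (32 tested) had 4 higher and 7 lower in KO on days 1 and 14 and 2 higher and 9 lower on day 28. The shares of all genes were 19.5%, 23.8% and 19.8% higher and 20.8%, 25.9% and 21.2% lower on the 3 days. The same shares are the background of both lists that follow. Its median stayed between -0.07 and -0.03. Among its members, the GTPase Rragd was the lowest on each day (-2.01 ± 0.44, -0.98 ± 0.35 and -1.11 ± 0.23), and Sesn1, a p53-responsive sestrin, was higher on each (0.45 ± 0.09, 0.73 ± 0.09 and 0.36 ± 0.09). Amino acid carriers outside the 7 families (16 tested, mostly mitochondrial or lysosomal) were called in 1 higher and 1 lower on day 1, 5 and 4 on day 14, and 2 and 2 on day 28. The mitochondrial aspartate/glutamate carrier Slc25a12 was higher in KO on days 1 and 14 (0.29 ± 0.10 and 0.81 ± 0.11), and the lysosomal cystine exporter Ctns lower on days 14 and 28 (-0.58 ± 0.11 and -0.41 ± 0.09).

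Enzymes of glutamine and glutamate metabolism (12 tested) were divided on day 1, 4 higher and 4 lower, and on day 14, 5 and 5. On day 28, 7 were higher in KO and the other 5 were not called. Glul, glutamine synthetase, was higher on day 1 (1.5 ± 0.11) and day 14 (0.84 ± 0.10). On those days the glutamine exchanger Slc1a5 was lower and the glutamine carrier Slc38a1 higher (0.31 and 0.62), and a link was not tested. Got1, the cytosolic aspartate transaminase, was lower on those days (-0.85 ± 0.10 and -1.42 ± 0.11). The glutathione synthesis subunits Gclc and Gclm were higher on day 28 (0.61 ± 0.13 and 0.95 ± 0.09), when Slc7a11 was still lower in KO.

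The other 26 transporter rows stayed under the minimum count: 7 had no count in any library, and the highest single value was 15 counts for Slc3a1, the heavy chain of the renal cystine carrier, whose total over the 12 libraries was 47. By family, 6 of 7 Slc1a rows, 1 of 2 Slc3a, 6 of 19 Slc6a, 9 of 15 Slc7a, 3 of 4 Slc36a, 7 of 11 Slc38a and 3 of 3 Slc43a rows reached the minimum. Exons of 10 of the 35 overlap another gene antisense to them. Whether counting used strand is not given in the sources used here, so reads of such neighbours cannot be told apart from those of Slc1a1, Slc1a2, Slc6a6, Slc6a9, Slc7a2, Slc7a4, Slc7a7, Slc38a9, Slc38a10 and Slc43a2. The longest overlaps were 2631 bases for Slc1a1 with 4430402I18Rik and 1429 bases for Slc6a9 with Ccdc24.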

How the data were processed

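Poly(A) RNA of 12 OCY454 libraries was measured, 2 for each of 6 groups taken from the sample titles. The authors deposited raw read counts by gene symbol. STAR, mm10, featureCounts (Subread) and edgeR are named, per the submitters' processing notes, with no order or role. For annotation, strand and multiply mapped reads, settings were not given in the sources used here. All 12 columns were used, and 3 transgene rows were left out.

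Genes kept by filterByExpr (minimum count 10, minimum total 15) numbered 13772. They were scaled by TMM and fitted in R 4.3.3 with edgeR 4.0.16 (quasi-likelihood F test, two-sided, 1 coefficient per group, 6 residual and 14.6 prior degrees of freedom). P-values were adjusted by Benjamini-Hochberg over all genes in each of 9 comparisons, and a gene was called below 0.05. The code was checked on simulated counts. CPM use the TMM-scaled totals; standard errors are the log2 fold change over the root of F. Where the lower group held 1 to 3 counts, the ratio is given with an exact 95% binomial interval, and 3 counts replace 0. Precision is limited by totals of 8590067 to 15357427 counts and 2 libraries per group.

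Positions and overlaps come from GENCODE vM21 (GRCm38), where all 35 symbols matched, and promoter windows from RefSeq (GRCm38.p6). Every member above the minimum may be named. All library values are given for 13 preset carriers and for members among the 3 highest or 3 lowest called log2 fold changes in a comparison at an average log2 CPM of at least 1. From the 4 context lists, genes among the 3 highest or lowest called on a day are named. The members and lists were chosen with earlier results of these data known. The labels do not say whether a replicate number marks a shared culture or day, and the samples were not treated as paired. Over 15 pairs of groups, deviations of same-numbered libraries correlated at -0.041 to 0.102, which cannot show how they were grown. Alternatives were RLE scaling, library totals alone, DESeq2 1.42.0, no filter, a filter of 50 counts in 2 libraries, a replicate block and leaving out each library.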

Additional observations from a re-analysis of the deposited data

Results flagged for a closer look

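The change over time differed between the lines by a direct test for the following members, given as the KO change minus the WT change on the log2 scale. From day 1 to day 14 these were Slc7a2 (-0.65), Slc7a5 (-0.64), Slc6a6 (0.33), Slc7a6 (0.55) and Slc36a2 (1.87). From day 14 to day 28 the differences were 1.56 for Slc7a11, 1.55 for Slc3a2, 1.48 for Slc6a9, 1.45 for Slc7a5, 1.28 for Slc1a4, 1.19 for Slc38a7, 1.17 for Slc7a2, 1.01 for Slc7a1, 0.92 for Slc6a6, 0.80 for Slc1a5, 0.76 for Slc6a17, 0.47 for Slc38a1 and 0.38 for Slc38a2, and on the lower side -0.34 for Slc7a6 and -0.96 for Slc43a2. Slc7a2 and Slc7a5 thus fell further behind WT in the first interval and rose more than WT in the second, Slc7a5 to above WT. The differences for the 2 intervals use the same day 14 libraries with opposite sign, so they are not independent. In the first interval 8.57% of members were called higher and 5.71% lower, below the 9.19% and 9.65% of all genes. In the second these were 37.1% and 5.71%, against 12.6% and 11.5%. The first-interval difference of Slc6a6 and the second-interval ones of Slc38a1, Slc7a6 and Slc43a2 were each lost on leaving out any 1 of 5 to 9 libraries.

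The table also holds rows for transgenes that no comparison used. The row for a YAP-GFP fusion had 2 and 3 counts in WT on day 1, 82 and 45 in WT on day 14, 224 and 75 in WT on day 28, and at most 7 in any KO library. A red fluorescent protein row had 19 counts in WT day 14 replicate 2, above the 10 and 7 of WT day 1.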

How the results depend on the processing

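No called member result changed direction under any alternative run that tested the gene. Of 148 calls over the 9 comparisons, 114 held under every alternative and 34 were lost in at least 1, 19 of these only on leaving out a library; 32 other results became called in at least 1. Leaving out each library in turn gave 14 to 24 called members for KO minus WT on day 1 (20 with all), 18 to 22 on day 14 (21) and 14 to 16 on day 28 (14). The ranges were 15 to 22 for day 14 minus day 1 in WT (19), 14 to 18 for day 28 minus day 14 in WT (16), 13 to 16 (16) and 17 to 22 (22) for the same changes in KO, 4 to 9 for the first difference of change (5) and 12 to 19 for the second (15). The 9 arose without either WT day 28 library. With a lone library in a group, its spread was taken from the other groups. Calls over all genes also rose or fell with the library left out, so these ranges are not particular to the transporters. In the first difference of change, calls over all genes too were more numerous without either WT day 28 library. By DESeq2, Slc7a6 (adjusted p = 0.10) and Slc43a2 (adjusted p = 0.071) were not called in the second difference of change, which left 13 members on the higher side. Scaling by library totals alone shifted the median of all genes by at most 0.09. A replicate block moved the counts to 21, 21, 14, 18, 16, 16, 22, 5 and 14, although same-numbered libraries showed little shared deviation (1 of 15 group pairs correlated above 0.1). Depth limits Slc1a1, Slc1a6, Slc6a7, Slc7a4 and Slc7a8, with few or no counts in at least 1 group.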
